A study of Mus musculus with 8 samples.

Results

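Cxcr2, Cxcr4, Fpr1 and Fpr2 are receptors that tell a neutrophil where to go, and their transcripts were followed here across neutrophil formation in culture, with and without miR-223. They are 4 of the 45101 probe sets of an Affymetrix mouse array, chosen by identifier: 1421734_AT stands for Cxcr2, 1448710_AT for Cxcr4, 1450808_AT for Fpr1 and 1422953_AT for Fpr2. Each gene is read through 1 probe set, and the pairing of gene and identifier was given with the choice of members, since the deposited table itself names no genes. The cells were grown from mouse bone marrow. Day 4 progenitors, wild type or miR-223 null, had been kept for 4 days in SILAC-IMDM with G-CSF, the growth factor of granulocytes, and SCF, the ligand of the receptor Kit, and were sorted as Kit positive and Gr-1 negative. Day 8 mature neutrophils of the same 2 genotypes had been kept with both factors for 6 days and then without SCF for 42 hours, and were sorted for Gr-1 and against Kit. There were 2 arrays in each of these 4 groups. The labels used here give no strain, age or sex, do not describe the null allele, and leave unsaid if replicate arrays stem from different mice or different cultures, so p-values cover array-to-array spread alone, which may be technical.

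All 4 are G protein-coupled receptors. CXCR2 binds the ELR-type CXC chemokines, such as CXCL1 and CXCL2, and drives neutrophils out of the marrow and towards inflamed tissue. CXCR4 binds CXCL12 made by marrow stroma and holds myeloid cells in the marrow, so the balance between both chemokine receptors sets when a neutrophil is released. FPR1 detects formylated peptides shed by bacteria and mitochondria, while FPR2 answers a wider set of peptides and lipids, among them serum amyloid A. miR-223 is a microRNA of the myeloid lineage that lowers messenger RNAs carrying matches to its seed.

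The microRNA missing from the null cells is encoded on the X chromosome, and its 2 mature strands are shown because they define the genotype contrast. The sequences are from RefSeq (GRCm38.p6), with the seed, bases 2 to 8, in capitals.
mmu-miR-223-3p: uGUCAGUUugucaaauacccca
mmu-miR-223-5p: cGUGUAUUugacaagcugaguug
Whether the receptor transcripts hold matches to these seeds was not tested, as no transcript sequence was used here. No probe set could be assigned to miR-223, so its loss in the null arrays was not checked on these data.

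The stretches directly upstream of the receptor genes are shown as background to the members. Each is the 250 bases before the gene's start in RefSeq (GRCm38.p6), and all 4 members had an entry. They lie at chr1:74153744-74153993 on the plus strand for Cxcr2, chr1:128592300-128592549 on the minus strand for Cxcr4, chr17:17883940-17884189 on the minus strand for Fpr1 and chr17:17887574-17887823 on the plus strand for Fpr2. Capitals mark matches on either strand to the core of the PU.1 site (GAGGAA) and to the TATA box (TATAAA).
Cxcr2: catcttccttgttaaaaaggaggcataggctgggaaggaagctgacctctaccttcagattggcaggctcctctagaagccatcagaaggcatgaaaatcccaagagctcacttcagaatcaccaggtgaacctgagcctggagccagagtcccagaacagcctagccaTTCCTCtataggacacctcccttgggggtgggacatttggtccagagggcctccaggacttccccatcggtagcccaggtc
Cxcr4: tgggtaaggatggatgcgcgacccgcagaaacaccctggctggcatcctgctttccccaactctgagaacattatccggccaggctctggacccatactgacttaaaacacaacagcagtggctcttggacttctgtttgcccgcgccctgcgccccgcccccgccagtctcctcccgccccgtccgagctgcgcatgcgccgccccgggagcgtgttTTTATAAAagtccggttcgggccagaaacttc
Fpr1: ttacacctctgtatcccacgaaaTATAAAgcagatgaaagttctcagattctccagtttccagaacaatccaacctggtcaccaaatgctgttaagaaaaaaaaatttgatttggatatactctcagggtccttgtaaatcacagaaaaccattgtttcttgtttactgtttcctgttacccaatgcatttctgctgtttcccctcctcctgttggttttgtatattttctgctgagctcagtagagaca
Fpr2: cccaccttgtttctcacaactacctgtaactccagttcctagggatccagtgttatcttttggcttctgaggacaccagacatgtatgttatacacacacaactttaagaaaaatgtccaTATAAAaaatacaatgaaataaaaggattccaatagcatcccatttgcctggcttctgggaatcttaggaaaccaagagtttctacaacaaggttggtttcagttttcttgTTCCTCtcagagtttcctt
Cxcr2 and Fpr2 each held 1 match to the PU.1 core, 81 to 76 and 19 to 14 bases before the start, a match that 23.3% of all 32851 RefSeq promoter windows of this length also hold. The TATA letters stood 30 to 25 bases before the start in Cxcr4, where they overlap a match on the opposite strand, but 227 to 222 bases before it in Fpr1 and 130 to 125 in Fpr2. They occur in 12.4% of all windows. None of the 4 windows held the C/EBP core TTGCNNAA, read on both strands, which 9.56% of all windows hold. The Cxcr4 window had 19 CpG dinucleotides, more than 80.3% of all windows have, whereas Cxcr2 and Fpr1 had 1 each and Fpr2 had 0, against a median of 6. Such matches and CpG counts describe letters in a window and say nothing of which factors bind there. Whether either is linked to the changes in signal was not tested. Fpr1 and Fpr2 are neighbours that point away from each other, with 3885 bases between their starts, and the coding gene that follows Cxcr2 is its relative Cxcr1.

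The deposited values are log2 signals with 1 value per array. Array medians lay between 5.44 and 5.50, so the table was analysed as already normalized. The arrays differed by day in a measure of RNA integrity or labelling: the beta-actin signal at the 3' end minus that at the 5' end was 0.36 to 0.44 on the log2 scale at day 4 and 0.10 to 0.17 at day 8, while for Gapdh it was -0.02 to 0.05 and -0.08 to -0.03. The part of this shift in the changes between days given below was not tested. The sort on Kit and Gr-1 could not be checked against marker transcripts, because the identifiers of other genes are not paired with names in the files. In bulk samples such as these, fewer cells of a type and less RNA per cell cannot be told apart.

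The receptors were first followed from progenitor to mature neutrophil. All 4 rose in both genotypes. The formyl peptide receptors and Cxcr2 rose by 24.5-fold to 149-fold, while Cxcr4 rose by 1.49-fold. Each change was tested with limma in 1 model over all 22519 probe sets that passed a filter on low values (a mean over all arrays of at least 5.51), and all 4 members passed it. A change was called at a Benjamini-Hochberg adjusted p below 0.05 over all probe sets tested. So many transcripts differed between the stages that being called says little: 35.5% of all tested probe sets were called higher at day 8 in wild type and 36.0% in null. A rise of 16-fold or more, which 3 of the 4 members showed, was found in 0.506% of all tested probe sets in wild type and 0.688% in null. This threshold was not part of the plan, and the members were chosen with earlier results of these data known. The contrast describes the members and is no test of them.

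**Figure D1:**
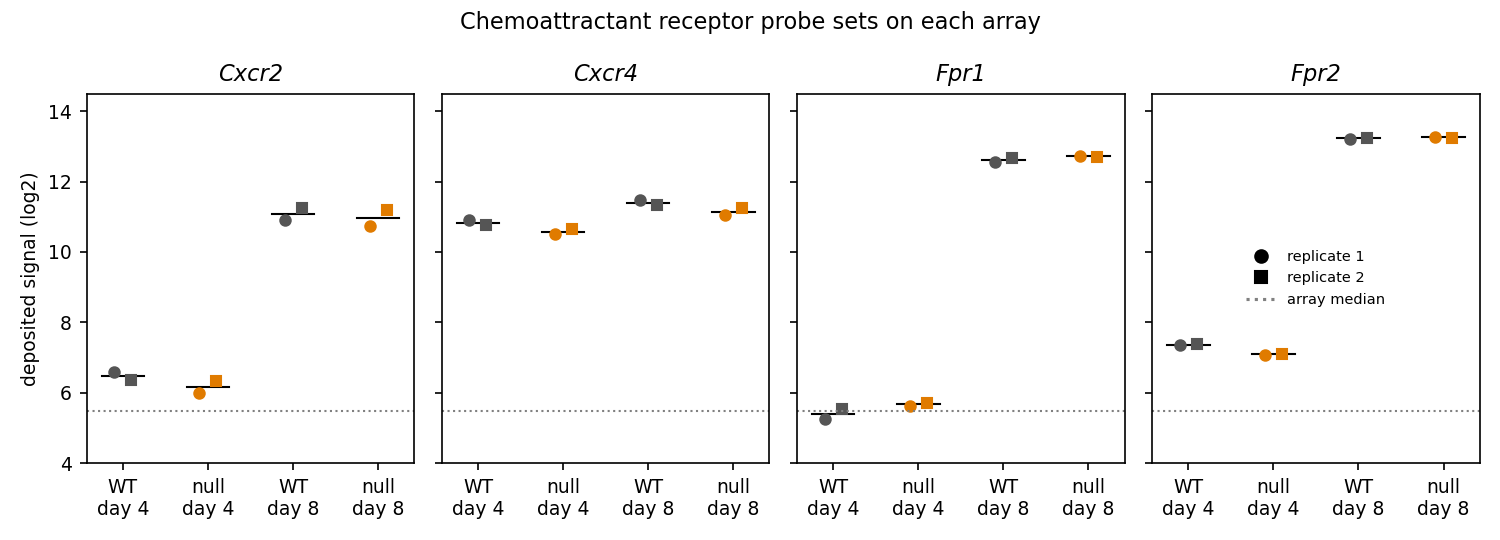
Deposited log2 signal of the 4 receptor probe sets on each of the 8 arrays (circles, replicate 1, and squares, replicate 2; grey, wild type, and orange, null), with group means as black lines and the median array median as a dotted line. Day 8 arrays lie far above day 4 arrays for Cxcr2, Fpr1 and Fpr2, and by 0.57 above them for Cxcr4 in either genotype; levels of different probe sets are not comparable.

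Fpr1, the receptor for formylated peptides, made the largest rise of the 4. Its wild-type log2 signal was 5.24 and 5.55 on the day 4 arrays and 12.55 and 12.68 on the day 8 arrays. In null cells it was 5.63 and 5.70 at day 4 and 12.74 and 12.70 at day 8. Every day 8 array lay far above every day 4 array, and the day 4 signals lay close to the median of their arrays. The rise was 7.22 on the log2 scale in wild type (SE 0.10, n = 2 per group, adjusted p = 5.4e-12 by limma), or 149-fold with a 95% interval of 127 to 175. In null it was 7.05 (SE 0.10, adjusted p = 5e-12), or 133-fold with an interval of 113 to 155. By size this was the second largest of all tested rises in wild type and the sixth in null. With day 4 signals this close to the array median, the fold depends on how the authors corrected for background, which is not given in the sources used here.

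Fpr2, which recognises a broader range of ligands than Fpr1, rose as well. Wild-type values were 7.35 and 7.38 at day 4 and 13.21 and 13.25 at day 8. Null values were 7.08 and 7.10 at day 4 and 13.27 and 13.24 at day 8. Replicates agreed closely, with SDs of 0.01 to 0.03 in the 4 groups. The rise was 5.86 on the log2 scale in wild type (SE 0.06, n = 2 per group, adjusted p = 1.7e-12 by limma), or 58.1-fold, and 6.16 in null (SE 0.06, adjusted p = 7.1e-13), or 71.7-fold. It ranked 20 among all tested rises in wild type and 24 in null.

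Cxcr2, the receptor for the chemokines that call neutrophils into tissue, followed with a smaller rise and a wider spread. Wild-type values were 6.58 and 6.35 at day 4 and 10.92 and 11.25 at day 8. In null they were 6.00 and 6.33 at day 4 and 10.73 and 11.18 at day 8. The days were far apart in both genotypes, although replicates of a group differed by 0.23 to 0.45. The rise was 4.62 on the log2 scale in wild type (SE 0.17, n = 2 per group, adjusted p = 1.4e-09 by limma), or 24.5-fold with a 95% interval of 18.9 to 31.7. In null it was 4.79 (SE 0.17, adjusted p = 8.8e-10), or 27.7-fold with an interval of 21.4 to 35.9. It ranked 60 among all tested rises in wild type and 71 in null.

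Cxcr4, the receptor that retains cells in the marrow, made the smallest rise of the 4. Wild-type values were 10.91 and 10.75 at day 4 and 11.47 and 11.33 at day 8. Null values were 10.50 and 10.64 at day 4 and 11.04 and 11.24 at day 8. The days did not overlap in either genotype, as was the case in the same direction for 42.6% of all tested probe sets in wild type and 44.4% in null. The rise was 0.57 on the log2 scale in both genotypes (SE 0.09, n = 2 per group, adjusted p = 0.00014 by limma in each), or 1.49-fold with a 95% interval of 1.30 to 1.71 in wild type and 1.29 to 1.71 in null. In wild type it ranked 5208 among all tested changes, above 76.9% of them. The direction of so small a change is relative to the scaling between arrays. When arrays were scaled to the 18 hybridization control probe sets, the median change over all tested probe sets was -0.21 for wild type and -0.35 for null. The Cxcr4 rise was then 0.41 in wild type (adjusted p = 0.003) and 0.22 in null (adjusted p = 0.091, no longer called). With the same median it was 0.55 in wild type and 0.54 in null. After quantile normalization it was 0.63 and 0.62, and after cyclic loess 0.76 and 0.69. No alternative turned its sign.

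**Figure D2:**
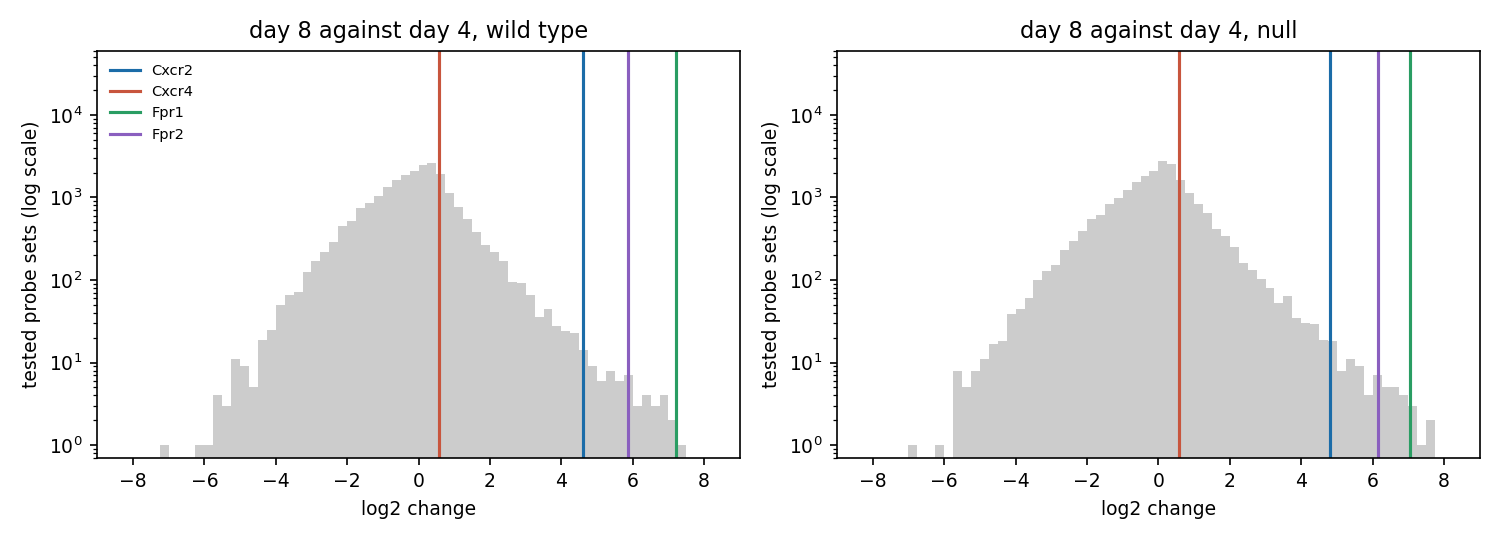
Histograms of the log2 change from day 4 to day 8 over the 22519 tested probe sets in wild type (left) and null (right), with the number of probe sets on a log scale and coloured lines at the 4 receptors. Fpr1, Fpr2 and Cxcr2 lie in the far right tail, at 7.22, 5.86 and 4.62 in wild type, and Cxcr4 lies within the bulk at 0.57.

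The genotypes were then compared within each day, to ask whether cells without miR-223 differ in these receptors. In progenitors at day 4 the differences were small, 1.20-fold to 1.23-fold: Cxcr2, Cxcr4 and Fpr2 had the lower signal in null and Fpr1 the higher. The arrays of the genotypes did not overlap for any of the 4 members, in a comparison where 27.8% of all tested probe sets were lower and 21.1% higher in null without overlap. With 2 arrays against 2 an exact permutation test cannot give a two-sided p below 0.333, so a call depends on limma's pooling of the spread over groups and probe sets. Fpr2 alone of the 4 members was called, and 2.14% of all tested probe sets were called lower in null at this stage. Of the 4 members 3 had an unadjusted p below 0.05 by limma, as had 18% of all tested probe sets.

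Fpr2 at day 4 was 7.37 ± 0.02 in wild type and 7.09 ± 0.01 in null (SD, n = 2). The difference was -0.27 (SE 0.06, adjusted p = 0.048 by limma), which is 1.21-fold lower. The nearest arrays of the genotypes were 0.26 apart, while replicates differed by 0.02 in wild type and 0.01 in null. The call was marginal all the same. Of 17 alternative settings 15 did not call it, with adjusted p-values between 0.039 and 0.46 over all of them, while the value stayed between -0.29 and -0.18. The call was lost when any 1 array other than wild-type day 4 replicate 2 was left out (adjusted p 0.079 to 0.23), under each of the 4 other scalings tried, and with the replicate number as a block (adjusted p = 0.058).

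Cxcr4 at day 4 was 10.83 ± 0.11 in wild type and 10.57 ± 0.10 in null (SD, n = 2), a difference of -0.26 (SE 0.09, adjusted p = 0.16), and of -0.17 when scaled to the hybridization controls. Fpr1 was 5.40 ± 0.22 in wild type, a mean below the filter value of 5.51, and 5.67 ± 0.05 in null. The filter used the mean over all arrays, which includes the far higher day 8 signals. The day 4 difference was 0.27 (SE 0.10, adjusted p = 0.20). That of Fpr1 was called when wild-type day 4 replicate 2 was left out (0.43, adjusted p = 0.023) and was 0.12 without replicate 1 of the same group. Cxcr2 was 6.46 ± 0.16 in wild type and 6.16 ± 0.24 in null, a difference of -0.30 (SE 0.17, adjusted p = 0.39), and its nearest arrays of the 2 genotypes were only 0.02 apart. None of these 3 passed the test, and the 95% intervals reached from -0.46 to -0.06 for Cxcr4, from 0.04 to 0.50 for Fpr1 and from -0.67 to 0.07 for Cxcr2. The lowest and highest Cxcr2 differences without 1 array were -0.47 and -0.13.

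In mature neutrophils at day 8 none of the 4 receptors was called by limma between the genotypes, and 1 of them, Cxcr4, had an unadjusted p below 0.05, as had 20.1% of all tested probe sets. Of these sets 4.09% were called higher and 1.22% lower in null (921 and 274), a split that became 326 and 368 when scaled to the hybridization controls. Fpr2 was 13.23 ± 0.03 in wild type and 13.25 ± 0.02 in null (SD, n = 2), with overlapping arrays and a difference of 0.03 (SE 0.06, 95% interval -0.11 to 0.17). These signals lay above 99.46% to 99.49% of the probe sets on their arrays. Whether signal this high still follows the amount of RNA was not tested, which also limits the changes of Fpr2 from day 4. Cxcr2 was 11.08 ± 0.23 in wild type and 10.96 ± 0.32 in null, again overlapping, with a difference of -0.12 (SE 0.17, interval -0.49 to 0.25). Its sign turned without null day 8 replicate 1 (0.10) or wild-type day 8 replicate 2 (0.04), and it was -0.21 when scaled to the hybridization controls. Fpr1 was 12.61 ± 0.09 in wild type and 12.72 ± 0.03 in null, a difference of 0.10 (SE 0.10, interval -0.13 to 0.33), and its arrays were parted by 0.02, where 30.4% of all tested probe sets were higher in null without overlap. It was 0.039 without wild-type day 8 replicate 1, 0.17 without replicate 2 of that group and 0.012 when scaled to the hybridization controls.

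Cxcr4 at day 8 was 11.40 ± 0.10 in wild type and 11.14 ± 0.14 in null (SD, n = 2). The difference of -0.26 (SE 0.09, unadjusted p = 0.015, adjusted p = 0.14 by limma) had a 95% interval of -0.46 to -0.06, or 0.726-fold to 0.958-fold. Both null arrays lay below both wild-type arrays, as for 20.6% of all tested probe sets. The difference was -0.16 (adjusted p = 0.53) without null day 8 replicate 1, and its size hardly differed from that at day 4 with all arrays. Ordered by signal, the 4 groups of Cxcr4 ran from null day 4 through wild-type day 4 and null day 8 to wild-type day 8, and no neighbouring groups overlapped. Null arrays lay below wild-type arrays without overlap on both days for 7.44% of all tested probe sets. Averaged over both days, a contrast added after these values were seen and so no independent support for them, the Cxcr4 difference was -0.26 (SE 0.06, adjusted p = 0.038 by limma), where 2.68% of tested probe sets were called lower. It was not called in 9 of 16 alternatives, over which adjusted p-values lay between 0.023 and 0.14. Of these 9, 6 were fits without 1 array: either replicate of null day 4 or of wild-type day 8, wild-type day 4 replicate 1, and null day 8 replicate 1 (differences of -0.21 to -0.30). In the other 3 receptors the averages were -0.21 for Cxcr2, 0.19 for Fpr1 and -0.12 for Fpr2, none of them called, although that of Fpr1 was called without wild-type day 4 replicate 2 (0.26, adjusted p = 0.018).

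**Figure D3:**
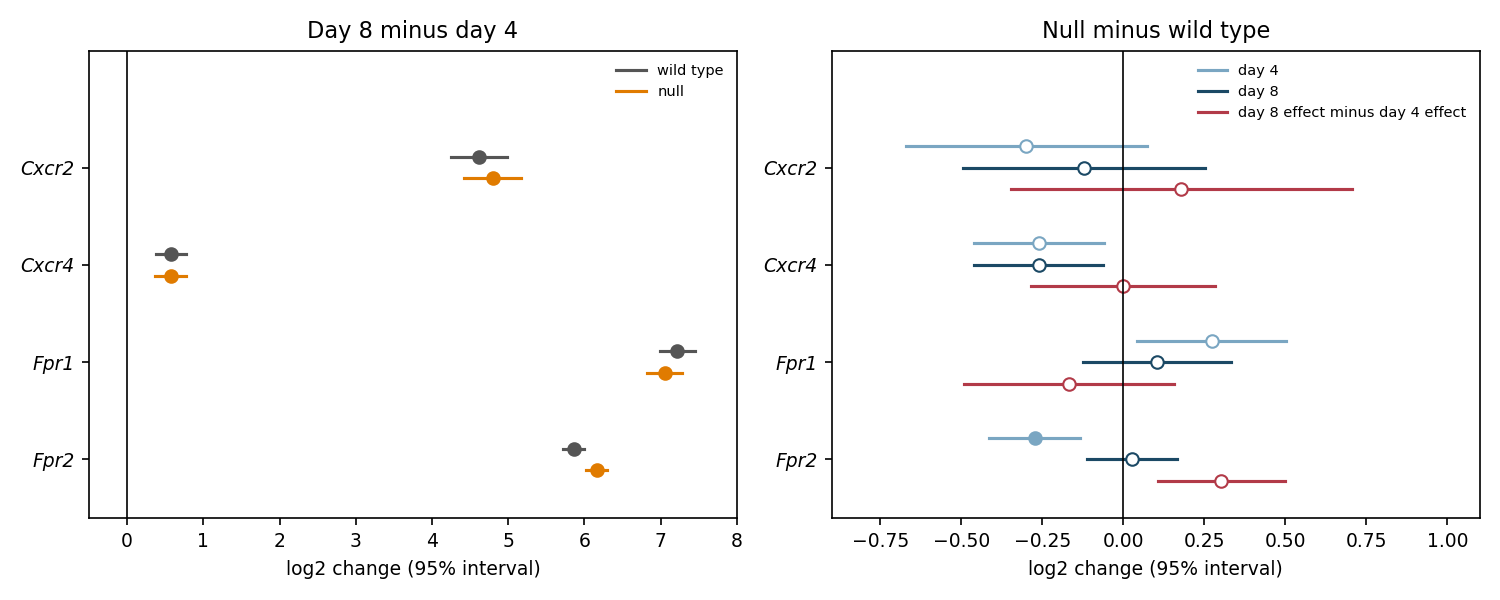
Log2 changes with 95% intervals from limma for the 4 receptors: day 8 minus day 4 in wild type (grey) and null (orange) on the left, and null minus wild type at day 4, at day 8, and the difference between these on the right (filled, adjusted p below 0.05; open, not called). The intervals of day 8 against day 4 lie above 0 for all receptors in both genotypes; between genotypes, Fpr2 at day 4 (-0.27) is the 1 filled point.

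The order of the groups differed between the receptors. For Fpr1 the signal was lowest in wild-type day 4, then null day 4, wild-type day 8 and null day 8, with neighbouring groups parted by 0.08 at day 4 and 0.02 at day 8. Null arrays lay above wild-type arrays without overlap on both days for 8.37% of all tested probe sets. For Fpr2 null day 4 lay below wild-type day 4, and the day 8 groups overlapped. Cxcr2 had the same order at day 4 and likewise overlapped at day 8.

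Whether the null difference itself changed between the days was tested with the interaction term, which also compares the rise from day 4 to day 8 between the genotypes. None of the 4 receptors was called by limma, and 1 had an unadjusted p below 0.05. Over all tested probe sets 1.66% were called and 16.5% had an unadjusted p below 0.05. That 1 was Fpr2, whose rise was larger in null by 0.30 on the log2 scale (SE 0.09, unadjusted p = 0.0063, adjusted p = 0.12), and the adjusted p stayed between 0.099 and 0.73 over 16 alternatives. The difference was 0.20 after quantile normalization and 0.12 when scaled to the hybridization controls. For Cxcr4 the rises were nearly equal, with a difference of -0.001 (95% interval -0.28 to 0.28). The differences were -0.17 for Fpr1 (interval -0.49 to 0.16) and 0.18 for Cxcr2 (interval -0.35 to 0.71), both with 2 arrays per group. That of Fpr1 was -0.016 without wild-type day 4 replicate 1, -0.32 without replicate 2 of that group and -0.35 when scaled to the hybridization controls. That of Cxcr2 was -0.047 without null day 8 replicate 2 and 0.40 without null day 8 replicate 1.

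**Figure D4:**
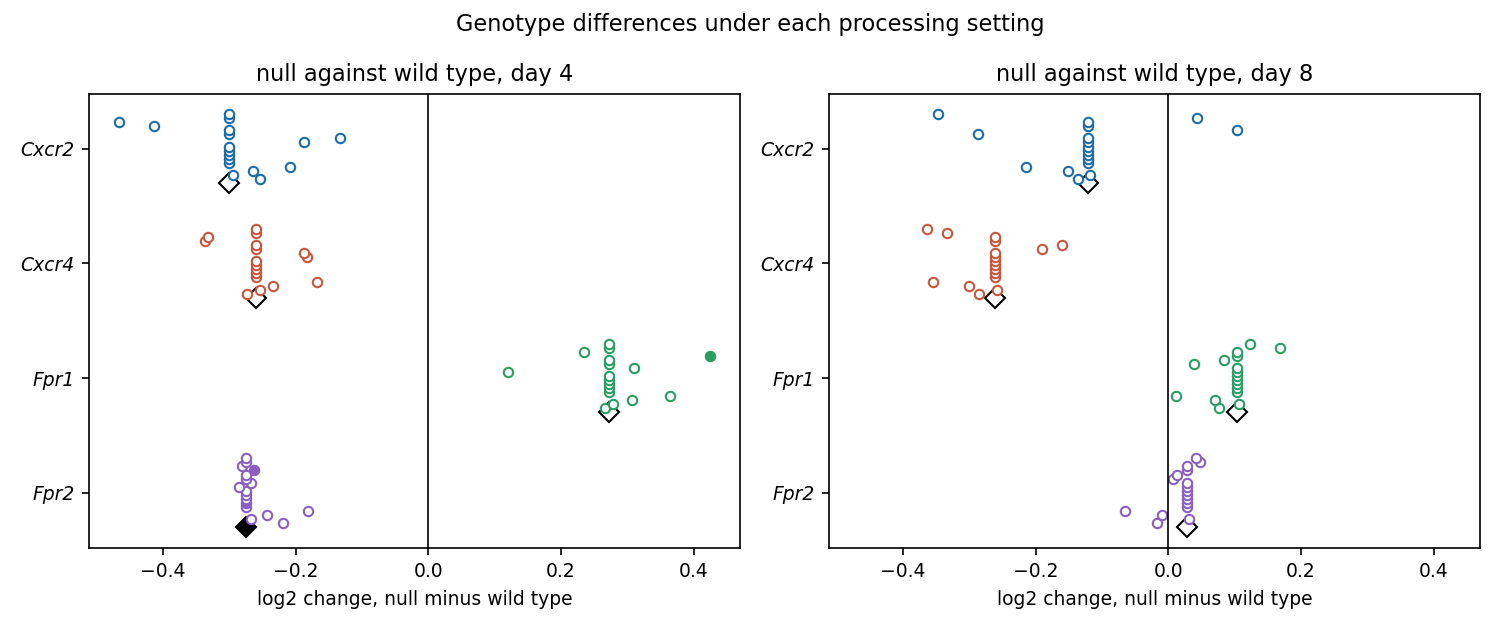
Null minus wild-type log2 difference of each receptor at day 4 (left) and day 8 (right) under the main setting (diamond) and 17 alternative settings (circles), filled where the adjusted p was below 0.05. At day 4 every setting kept the sign of each receptor, with 1 filled circle for Fpr1 and 2 for Fpr2; at day 8 the circles of Cxcr2 and Fpr2 fall on both sides of 0.

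The observed spread within groups differed among the members. The residual SD within groups was 0.243 for Cxcr2, larger than that of 95.2% of all tested probe sets, and 0.0201 for Fpr2, larger than that of 0.555%. Cxcr4 (0.115) and Fpr1 (0.121) lay near the median of 0.107. Each of these SDs rests on 4 residual degrees of freedom and is itself uncertain. After limma's pooling of the spread, the SE of the day 4 difference was 0.06 for Fpr2 (-0.27) and 0.17 for Cxcr2 (-0.30).

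The likeness of the members to each other and to other probe sets was described by the root mean square difference over the 8 arrays, after each probe set's own mean had been subtracted. Between the members, most of this difference reflects the step from day 4 to day 8. Fpr1 and Fpr2 differed by 0.60. Among 22518 other probe sets, Fpr2 was number 17 in closeness to Fpr1. In closeness to Fpr2, Fpr1 was number 47 and Cxcr2 number 58. Cxcr2 was closer to Fpr2 (0.68) than to Fpr1 (1.25). Cxcr4 was 2.07 to 3.29 from the other receptors. Only 2 probe sets lay within 0.25 of Fpr1, 9 within 0.25 of Fpr2 and 22 within 0.25 of Cxcr2, but 4587 within 0.25 of Cxcr4. The closest to Fpr1 was 1448291_AT, at 0.21, and the closest to Fpr2 was 1416871_AT, at 0.14. Both rose from day 4 to day 8, and no pairing with genes was at hand for them. They did not share the members' order of genotypes throughout. The means of 1416871_AT were 6.80 in wild type and 6.25 in null at day 4, and 12.60 and 12.42 at day 8. Those of Fpr2 at day 8 were 13.23 and 13.25. For 1448291_AT they were 12.95 in wild type and 12.83 in null at day 8, where Fpr1 had 12.61 and 12.72.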

How the data were processed

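Gene expression was measured on 8 arrays, 2 for each of 4 groups. The values deposited by the authors are log2 signals, 1 per probe set and array. Log base 2 was inferred from their range. Per the submitters' processing notes the scanner software GCOS was used, with no version named. How probes were summarized, background removed and arrays normalized is not given in the sources used here. A correction that pulls dim probe sets to a floor would change the folds of Fpr1 and Cxcr2, and a scaling that equalizes arrays removes changes in total RNA.

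From these values, the 64 control probe sets and those with a mean below 5.51, the median of the remaining 45037, were left out. A mean per group was fitted to the other 22519 with limma 3.58.1 (lmFit, then eBayes with trend = TRUE, 4 residual degrees of freedom) in R 4.3.3. Tests were two-sided with Benjamini-Hochberg adjustment over all probe sets tested. The steps were also run on simulated data with independent noise and few planted changes. As that setting is unlike these data, it is no support for the calls given here. The number of arrays limits the precision: over tested probe sets, differences between groups had a median SE of 0.115.

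Alternatives were 4 scalings, 2 filters, no trend, a fit on the groups compared alone, the replicate number as a block, and leaving out each array. The named genes are the 4 members and the probe sets closest in pattern. The members, lists and motifs were chosen with earlier results of these data known. Lists of related receptors, ligands, signalling genes and cell type markers could not be applied, as no pairing of probe sets with genes was at hand.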

Additional observations from a re-analysis of the deposited data

How the results depend on the processing

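The rises of Cxcr2, Fpr1 and Fpr2 from day 4 to day 8 were called in both genotypes in all 17 alternatives, as was that of Cxcr4 in wild type. In null, Cxcr4 was not called only when scaled to the hybridization controls (0.22). Fpr2 at day 4 was not called after quantile normalization (-0.22), scaling to the same median (-0.27), cyclic loess (-0.24) or scaling to the hybridization controls (-0.18), or, at an unchanged -0.27, with no filter, with no intensity trend, in a fit of the 2 groups alone or with the replicate block. Without single arrays it was -0.29 to -0.26. At day 8 its sign turned after quantile normalization (-0.017), cyclic loess (-0.0099) and scaling to the hybridization controls (-0.065). The causes were not tested. Without single arrays, the genotype difference was 0.12 to 0.43 for Fpr1 at day 4 and -0.35 to 0.10 for Cxcr2 at day 8. For the change of this difference from day to day it was -0.047 to 0.40 for Cxcr2 (-0.0060 when scaled to the hybridization controls) and -0.10 to 0.10 for Cxcr4. The average over both days was 0.11 to 0.26 for Fpr1 and -0.31 to -0.21 for Cxcr4, whose call was also lost with the same median (-0.26), scaled to the hybridization controls (-0.26) and with no intensity trend (-0.26).

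Counts of all probe sets called moved more. A filter at the upper quartile, which tests fewer, left 9601 of 17374 from day 4 to day 8 in wild type and 9673 of 17085 in null. Between genotypes, 613 calls at day 4 became 222 with no intensity trend, 122 in a fit of the 2 groups alone and 128 to 1658 without single arrays (128 without null day 4 replicate 1, 143 without its replicate 2, 213 and 1658 without wild-type day 4 replicates 1 and 2). At day 8, 1195 became 694 when scaled to the hybridization controls, 747 with no intensity trend and 353 to 1698 without single arrays (353 and 534 without null day 8 replicates 1 and 2, 613 and 401 without those of wild type). For the difference between the days, 373 became 209 after quantile normalization, 198 after cyclic loess, 124 when scaled to the hybridization controls, 129 with no intensity trend and 47 to 890 without single arrays. For the average, 1412 became 916 when scaled to the hybridization controls, 839 with no intensity trend and 519 to 2691 without single arrays. Scaling to the hybridization controls also moved the split of calls, from 7985 higher and 9389 lower to 5795 and 10266 between the days in wild type, from 8106 and 8979 to 4896 and 11487 in null, and from 131 and 482 to 221 and 205 between genotypes at day 4.

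Deviations of same-numbered arrays correlated at -0.05 to 0.22 across 6 pairs of groups, with 2 pairs over 0.1. The highest was between null day 4 and null day 8. In 4 of the 6 pairs arrays correlated better with their own number. With 2 arrays per group, this cannot show if same-numbered arrays share a culture or a batch. The replicate block gave 630 calls between genotypes at day 4 and 1225 at day 8, and among the members it changed no call other than that of Fpr2 at day 4.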
